A study of Mus musculus with 13 samples.

Results

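Lipogenesis builds fatty acids from citrate and acetyl-CoA. Its genes were examined in whole aortas of AngII-infused ApoE-/- mice, as 10 genes chosen by symbol for their part in fatty acid synthesis, desaturation, elongation or its regulation: Acly, Acaca, Acacb, Me1, Fasn, Elovl6, Scd1, Scd2, Srebf1 and Mlxipl. All 10 were found by symbol among the 54532 genes of the count table, and all 10 were among the 15811 genes that passed the filter on low counts. The 13 aortas, each 1 library, comprised 6 labelled Ad-sham (empty adenovirus, weekly through the tail vein) and 7 labelled Ad-FAM3A. The Ad-FAM3A virus carried mouse Fam3a with a FLAG tag. The study's methods name both an EF1A and a CMV vector, so the promoter is uncertain. Every mouse lacked ApoE, was 10 weeks old at the start, received 1000 ng/kg/min of the hypertensive peptide AngII from a subcutaneous pump for at most 28 days, and was injected with virus 5 times. No aorta without AngII or without virus was analysed here, and the sex of each animal is not given in the sources used here.

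Total counts ranged from 14481179 to 19797407 per aorta. Fam3a, the delivered gene, was at 24.4 ± 4.27 CPM (counts scaled to library size; SD, n = 6) in the aortas labelled Ad-sham and 24.0 ± 4.64 CPM (SD, n = 7) in those labelled Ad-FAM3A, where the log2 fold change was -0.03 (SE 0.16). The RNA therefore did not show the delivered gene above its level in the controls, and the groups below are groups by label. The defining genes of the labelled tissue were present, with the summed level of 8 smooth muscle markers between 2251 and 18191 CPM. Adipocyte markers were also abundant in every aorta, with 10 markers summing to between 4504 and 20632 CPM.

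In the pathway, ATP citrate lyase (Acly) cleaves citrate to acetyl-CoA, and the acetyl-CoA carboxylases (Acaca and Acacb) turn acetyl-CoA into malonyl-CoA. Fatty acid synthase (Fasn) assembles these into palmitate with NADPH that malic enzyme (Me1) helps to supply, Elovl6 lengthens palmitate, and the stearoyl-CoA desaturases Scd1 and Scd2 introduce a double bond. The transcription factors SREBP-1 (Srebf1) and ChREBP (Mlxipl) switch these genes on in response to insulin and to carbohydrate. In mice the pathway is most active in liver and in white and brown fat, and fat of both kinds lies around the aorta.

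Promoter sequence was examined because the members moved together across aortas, as described below. RefSeq's promoter windows (250 bases before to 50 after a transcription start, GRCm38.p6) held 12 windows for 8 of the 10 members, all but Scd1 and Scd2. Both strands were searched for CCAAT, for the E-box CACGTG and for TCACNCCAC, which resembles the sterol regulatory element; these letters do not overlap one another in the windows printed, except that 2 CCAAT matches of Fasn on opposite strands overlap within CCAATTGG. The 250 bases before the start are given for Fasn, for 1 of the 3 starts of Srebf1 and for both starts of Mlxipl, 5′ to 3′ on the gene's strand, as the synthase and the regulators of the pathway, with capitals marking any of the 3 motifs:
Fasn, chr11:120824548-120824797, minus strand: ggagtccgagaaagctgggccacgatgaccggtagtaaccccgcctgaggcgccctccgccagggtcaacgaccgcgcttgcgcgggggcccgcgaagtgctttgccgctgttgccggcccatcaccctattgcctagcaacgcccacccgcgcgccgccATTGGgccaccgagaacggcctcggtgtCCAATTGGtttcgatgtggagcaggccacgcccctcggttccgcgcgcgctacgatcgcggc
Srebf1, chr11:60210472-60210721, minus strand: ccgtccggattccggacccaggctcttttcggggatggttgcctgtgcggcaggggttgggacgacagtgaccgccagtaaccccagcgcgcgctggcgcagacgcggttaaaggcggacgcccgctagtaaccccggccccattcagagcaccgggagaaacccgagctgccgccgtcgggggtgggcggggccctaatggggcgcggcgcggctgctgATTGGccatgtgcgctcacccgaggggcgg
Mlxipl, upstream start, chr5:135089640-135089889, plus strand: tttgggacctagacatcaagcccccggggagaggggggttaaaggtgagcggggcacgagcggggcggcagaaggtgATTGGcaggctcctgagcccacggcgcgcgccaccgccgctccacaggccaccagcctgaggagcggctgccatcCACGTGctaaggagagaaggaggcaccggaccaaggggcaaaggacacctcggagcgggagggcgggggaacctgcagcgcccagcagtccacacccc
Mlxipl, downstream start, chr5:135106641-135106890, plus strand: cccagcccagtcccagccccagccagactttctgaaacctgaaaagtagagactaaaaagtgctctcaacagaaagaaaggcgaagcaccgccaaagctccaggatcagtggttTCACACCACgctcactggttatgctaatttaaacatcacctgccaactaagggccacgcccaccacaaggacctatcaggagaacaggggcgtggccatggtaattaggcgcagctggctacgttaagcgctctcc
CCAAT occurred in 7 of the 12 windows, against 37.4% of all 32851 RefSeq windows of the same length, and Fasn held 3 matches. CACGTG occurred in 1 window, the upstream start of Mlxipl, against 7.15% of all windows. TCACNCCAC occurred in 1 window, the downstream start of Mlxipl, against 1.24% of all windows. The GC-rich letters GGGCGG, searched in the same way but not capitalised, occurred in 5 windows, against 35.7% of all windows. These matches are letters in a window and were not related to the measured levels.

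Scd1 and Fasn were among the most abundant transcripts of the aortas, and the other members took at most 0.348% of counts each. Together the 10 genes took between 1.02% (Ad-FAM3A2) and 5.39% (Ad-sham1) of all counts. Scd1 alone took up to 3.32% of counts and ranked between 3 and 9 among all genes. Per length, in CPM per kb, the Ad-sham mean was 3330 ± 2019 (SD, n = 6) for Scd1 and 908 ± 564 for Fasn. The next levels on this scale were 312 ± 213 for Acly and 176 ± 75.3 for Me1. The regulators were lower, with Srebf1 at 51.5 ± 16.9 and Mlxipl at 20.9 ± 14.2. Scd1 was above Fasn, Fasn above Acly, Acly above Me1, and Srebf1 above Mlxipl in all 13 aortas. Between Me1 and Mlxipl the means on the same scale ran from 84.2 ± 31.8 for Scd2 through 80.7 ± 49.1 for Acaca, 68.3 ± 48.1 for Acacb and 53.0 ± 31.1 for Elovl6 to Srebf1, and neighbours in this stretch changed places between aortas. The authors' mean FPKM of Fasn was 906 in Ad-sham and 421 in Ad-FAM3A, near the 908 and 421 CPM per kb computed from the counts.

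**Figure D1:**
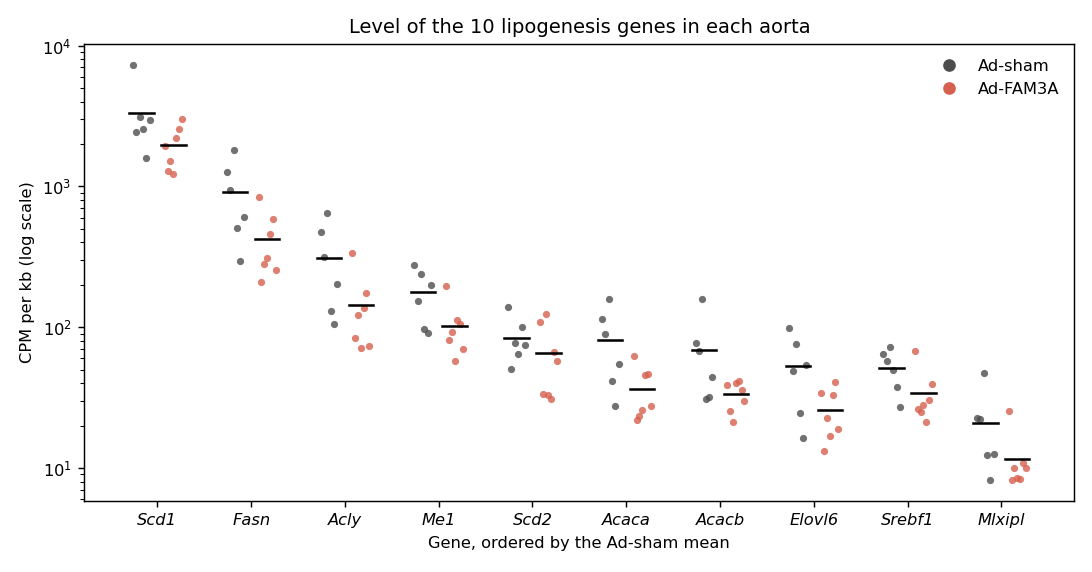
CPM per kb (log scale) of the 10 lipogenesis genes in each of 6 Ad-sham and 7 Ad-FAM3A aortas; points are aortas and bars are group means. Scd1 and Fasn sit above the other genes, and the 2 groups overlap for every gene while each Ad-FAM3A mean lies under the Ad-sham mean.

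To ask whether the FAM3A virus was accompanied by a change in this pathway, the aortas labelled Ad-FAM3A were compared with those labelled Ad-sham. The mean of every lipogenesis gene was lower in the aortas labelled Ad-FAM3A, but no gene passed the test. With edgeR's quasi-likelihood model and Benjamini-Hochberg adjustment across 15811 genes, 0 of the 10 members were called, where 0% of all genes tested were called at an adjusted p under 0.05 (smallest adjusted p 0.810). Before adjustment, 934 genes in either direction had a p under 0.05. DESeq2 called 10 genes, of which 0 were members. All 10 members had a log2 fold change below 0, against 49.6% of all genes tested. Their median was -0.94, against 0.00 over all genes, and 9 of 10 were at -0.5 or lower, against 8.74% of all genes. At an unadjusted p under 0.05, 7 of 10 were lower, against 2.93% of all genes. For 0 of 10 members did every aorta labelled Ad-FAM3A lie below every aorta labelled Ad-sham, against 0.0569% of all genes. These shares are descriptions and not a test of the pathway. The members were chosen with earlier results of these data known, and those other than Scd2 moved together across aortas. Since the 13 aortas are bulk tissue, fewer cells of a type and less RNA per cell cannot be told apart.

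Fasn and Acly, which complete and start palmitate synthesis, varied widely between aortas of the same label. Fasn ranged from 3223 to 19908 CPM with a median of 8511 in Ad-sham, and from 2306 to 9236 CPM with a median of 3396 in Ad-FAM3A. Acly, which feeds it acetyl-CoA, ranged from 551 to 3420 CPM (median 1369) in Ad-sham and from 377 to 1787 CPM (median 645) in Ad-FAM3A. The groups overlapped for both genes, with 3 of 7 aortas labelled Ad-FAM3A below the lowest Ad-sham aorta and Ad-FAM3A1 above the Ad-sham median. The log2 fold change of Fasn was -1.11 (SE 0.45, unadjusted quasi-likelihood p = 0.0261, exact permutation p = 0.0501). That of Acly was -1.13 (SE 0.47, p = 0.0319, exact permutation p = 0.0723). The permutation was two-sided over the 1716 assignments of 13 aortas to groups of 6 and 7, and the smallest p it can give is 0.00117.

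The carboxylases, which make malonyl-CoA for synthesis (Acaca, in the cytosol) or at the mitochondrial surface (Acacb), gave the smallest p-values among the members. Acaca ranged from 468 to 2684 CPM (median 1234) in Ad-sham and from 377 to 1057 CPM (median 473) in Ad-FAM3A. Acacb ranged from 297 to 1529 CPM (median 539) in Ad-sham and from 204 to 399 CPM (median 344) in Ad-FAM3A. All 7 aortas labelled Ad-FAM3A lay below the Ad-sham median for both genes, although the groups overlapped. The log2 fold change of Acaca was -1.16 (SE 0.39, unadjusted quasi-likelihood p = 0.0103, exact permutation p = 0.0455). That of Acacb was -1.04 (SE 0.35, p = 0.0104, exact permutation p = 0.0490). Both genes had an adjusted p of 0.810. Acaca and Acacb were the only members below an unadjusted p of 0.05 whichever of the 13 aortas was left out, with Acaca between -1.34 and -0.86 and Acacb between -1.19 and -0.60. Neither stayed there with the adipocyte marker level as a covariate (Acaca at -0.73, Acacb at -0.65) or with the replicate number as a block (-0.95 and -0.75).

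Me1 supplies NADPH from malate. It ranged from 351 to 1057 CPM (median 682) in Ad-sham and from 222 to 752 CPM (median 358) in Ad-FAM3A. Its log2 fold change was -0.79 (SE 0.32, unadjusted quasi-likelihood p = 0.0274, exact permutation p = 0.0501). Elovl6, the elongase that makes stearate, ranged from 104 to 638 CPM (median 330) in Ad-sham and from 85.5 to 264 CPM (median 146) in Ad-FAM3A. All 7 aortas labelled Ad-FAM3A lay below its Ad-sham median, and its log2 fold change was -1.05 (SE 0.39, p = 0.0173, exact permutation p = 0.0734).

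The log2 ratio of Scd2 to Scd1 did not differ between the groups (difference 0.17, exact permutation p = 0.721), so their fold changes are not shown to differ. Scd1, the main desaturase of fat and liver, ranged from 7734 to 35333 CPM (median 13333) in Ad-sham and from 5891 to 14614 CPM (median 9310) in Ad-FAM3A, with a log2 fold change of -0.76 (SE 0.37, unadjusted quasi-likelihood p = 0.0598, exact permutation p = 0.0711). The highest value was that of Ad-sham1, and without this aorta the log2 fold change was -0.37. Scd2, an isoform known from brain and nerve, ranged from 274 to 763 CPM (median 413) in Ad-sham and from 168 to 677 CPM (median 316) in Ad-FAM3A. Its log2 fold change of -0.37 (SE 0.36, p = 0.324, exact permutation p = 0.220) was the nearest to 0 of the 10 members, and 5 of 7 aortas labelled Ad-FAM3A were below the Ad-sham median. The other desaturase genes at this locus, Scd3 and Scd4, were near the limit of detection, at 1.02 ± 0.89 and 0.69 ± 0.51 CPM in Ad-sham (SD, n = 6).

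The fold changes of the regulators lay within the range of those of the enzymes. Srebf1, which encodes the factor that acts downstream of insulin, ranged from 153 to 407 CPM (median 301) in Ad-sham and from 119 to 381 CPM (median 158) in Ad-FAM3A. Its log2 fold change was -0.60 (SE 0.29, unadjusted quasi-likelihood p = 0.0547, exact permutation p = 0.0688). Mlxipl, the carbohydrate-responsive factor, ranged from 45.7 to 263 CPM (median 96.0) in Ad-sham and from 45.4 to 141 CPM (median 54.9) in Ad-FAM3A. Its log2 fold change was -0.85 (SE 0.39, p = 0.0457, exact permutation p = 0.0932). Ad-FAM3A1 was high in both, and for Mlxipl 1 of 7 aortas labelled Ad-FAM3A was below the lowest Ad-sham aorta.

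The size of these differences rested in part on a few aortas. All 10 members were highest in Ad-sham1 or Ad-sham3, and for 7 of them these were the 2 highest of the 13 aortas. Ad-FAM3A2 was among the lowest 3 aortas for all 10 members and the lowest for 4. Ad-sham5 was among the lowest 5 for 8 members, although it carries the control label. Leaving out Ad-sham3 moved the log2 fold change of Mlxipl to -0.43 and of Acacb to -0.60. That of Scd2 was -0.17 without Ad-sham1 and -0.59 without Ad-FAM3A3. The number of members lower at an unadjusted p under 0.05 was 2 without Ad-sham1 and 3 without each of Ad-sham3, Ad-FAM3A2, Ad-FAM3A3 and Ad-FAM3A4, and 4 without Ad-FAM3A7, against 7 with all aortas. The direction did not depend on 1 aorta: leaving out each in turn, all 10 log2 fold changes stayed below 0.

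**Figure D2:**
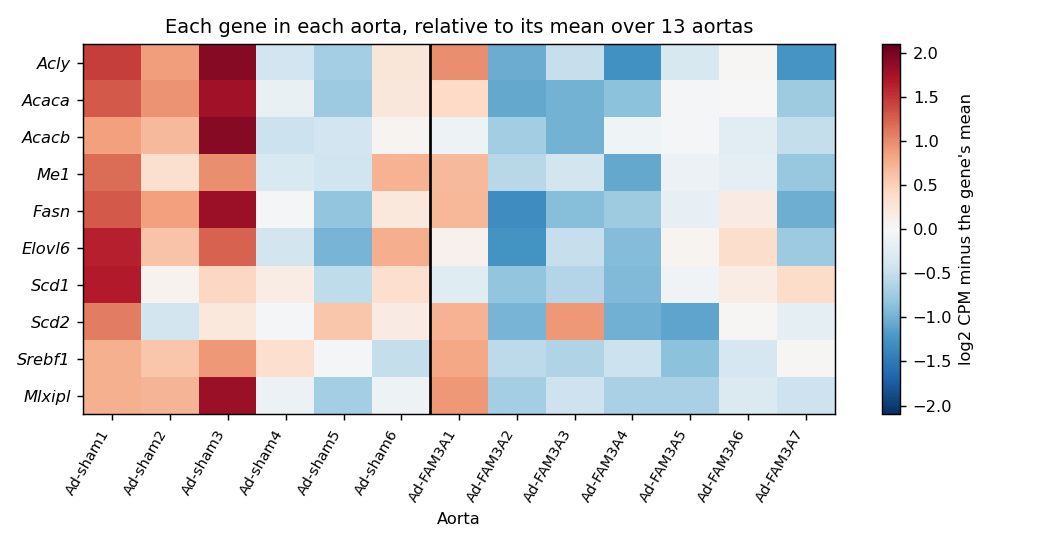
Log2 CPM of each lipogenesis gene in each aorta minus the gene's mean over 13 aortas (colour; red higher, blue lower), with Ad-sham to the left of the black line and Ad-FAM3A to the right. Ad-sham1 and Ad-sham3 are red in nearly every row, Ad-FAM3A2 is blue in every row, and Scd2 follows another order.

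The other genes of fatty acid and lipid synthesis showed the same direction in part. Of 67 further genes in 5 lists, all tested, 54 had a log2 fold change below 0 and 12 were lower and 1 higher at an unadjusted p under 0.05, with 0 called after adjustment and a median of -0.24. Over all genes tested 49.6% were below 0 and 2.93% were lower and 2.98% higher at an unadjusted p under 0.05, against which the counts of the lists below are to be read. The lists were also chosen with earlier results of these data known, so these counts are descriptions and not a test. All 8 further genes that supply acetyl-CoA and NADPH were below 0 (median -0.70). Of these, 3 were lower at an unadjusted p under 0.05: Slc25a1, the mitochondrial citrate carrier, at a log2 fold change of -0.99 (SE 0.36), and Pgd and G6pdx of the pentose phosphate pathway at -0.83 (SE 0.34) and -0.57 (SE 0.23). All 8 genes of triglyceride assembly were also below 0 (median -0.52), and 3 were lower at an unadjusted p under 0.05. These were Gpam and Gpat3, acyltransferases of the entry step, at -0.77 (SE 0.25) and -0.72 (SE 0.32), and Dgat1, of the last step, at -0.57 (SE 0.23). Lpin1 of the same list stood at -0.01 (SE 0.28).

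Among 17 other elongases, desaturases and their partner enzymes, 12 were below 0 and 5 were lower at an unadjusted p under 0.05 (median -0.15). Elovl3, an elongase of brown and cold-exposed fat, had the most negative value, -1.85 (SE 0.69), with 22.7 ± 17.1 CPM in Ad-sham (SD, n = 6) and 6.31 ± 4.12 CPM in Ad-FAM3A (SD, n = 7). The others were Hsd17b12, Hacd2 and Tecr, which carry out the later steps of each elongation cycle, at -0.58 (SE 0.24), -0.54 (SE 0.24) and -0.49 (SE 0.20), and the elongase Elovl5 at -0.46 (SE 0.20). The 18 other regulators had a median of -0.13, with 12 below 0. At an unadjusted p under 0.05 1 was lower, Cebpa, an adipocyte transcription factor, at -0.79 (SE 0.30), and 1 was higher, Mlxip, a relative of Mlxipl found in muscle, at 0.37 (SE 0.16). Srebf2, which controls sterol synthesis, was at 0.11 (SE 0.16), and in sterol synthesis itself 14 of 16 genes were below 0, 0 had an unadjusted p under 0.05 and the median was -0.23.

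**Figure D3:**
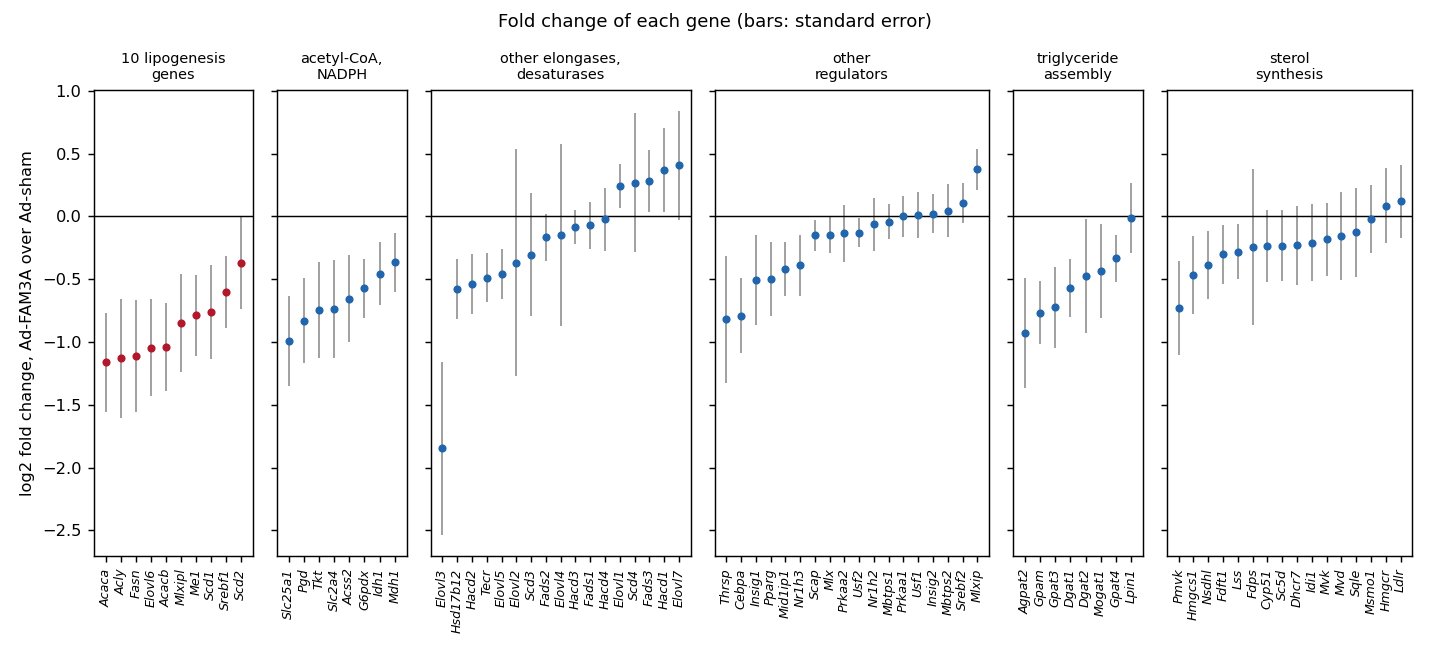
Log2 fold change, Ad-FAM3A over Ad-sham, of the 10 lipogenesis genes (red) and of 67 genes in 5 related lists (blue), with bars for the standard error. All 10 members and all genes that supply acetyl-CoA and NADPH lie below 0, while the medians of the regulators (-0.13) and of sterol synthesis (-0.23) lie nearer 0.

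The proportions of the members to one another were then compared within each aorta, since such a ratio does not change with library size. The closest proportion was that of Acaca to Fasn, whose log2 ratio of CPM had an SD of 0.16 over the 13 aortas, from 0.114 to 0.169 on the linear scale, while Fasn itself ran from 2306 to 19908 CPM. Acly to Fasn was the next closest, with an SD of 0.27. Scd1 to Fasn varied far more (SD 0.71), from 0.759 in Ad-sham3 to 5.23 in Ad-FAM3A7. This is a ratio of counts, not of levels per length, on which Scd1 was above Fasn in every aorta. The most variable of the 8 ratios was Scd2 to Scd1 (SD 0.75). None of the 8 log2 ratios differed between the groups by the exact permutation test, with Benjamini-Hochberg adjusted p from 0.962 to 0.981. The difference in the mean log2 ratio was 0.00 for Acaca to Fasn and 0.36 for Scd1 to Fasn. Neither of these differences exceeded the SD within the groups, 0.08 (n = 6) and 0.22 (n = 7) for Acaca to Fasn and 0.71 and 0.72 for Scd1 to Fasn.

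**Figure D4:**
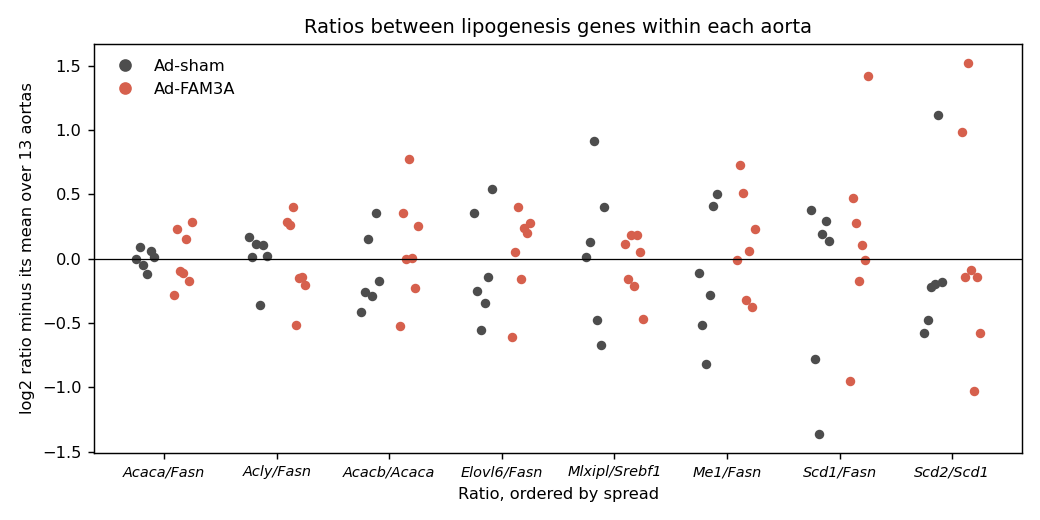
Log2 ratio of CPM between pairs of lipogenesis genes in each aorta, minus the mean of that ratio over 13 aortas, ordered by spread; points are aortas, grey for Ad-sham and red for Ad-FAM3A. Acaca/Fasn is the tightest (SD 0.16), Scd1/Fasn and Scd2/Scd1 are the widest (SD 0.71 and 0.75), and the groups overlap in every ratio.

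Likeness between genes was described by Pearson r of log2 CPM over the 13 aortas, as a description. All genes are read from the same libraries, which differ in tissue composition and in virus label. Among the 9 members other than Scd2, r between pairs ran from 0.53 to 0.99 with a median of 0.82 over 36 pairs, whereas r of Scd2 with the others ran from 0.12 to 0.54. Outside the members, the genes most like Acly were Pgd (0.95), Gm5182 (0.94) and Acss2 (0.94), and those most like Fasn were Gm5182 (0.96), Paqr9 (0.94) and Pgd (0.93). The profile of Me1 was nearest to Acss2 (0.95), an acetyl-CoA synthetase, and that of Mlxipl to Pgd (0.94). Acacb was most like Adipor2 (0.94), an adiponectin receptor, and Scd1 most like Coa5 (0.92). Srebf1 was most like Atg9b (0.91). Scd2 had other neighbours, Tmc7 (0.94), Nlgn3 (0.93), which encodes a synaptic adhesion protein, and Hmgcs1 (0.91), which acts early in sterol synthesis. Gm5182 is annotated as a processed pseudogene and shares 56.8% of the 31-base stretches of Acaca transcripts, so the 874 to 5764 counts given to it per aorta and the 5670 to 42532 given to Acaca cannot be told apart with certainty. Scd2 shares 4.66% of its stretches with Scd1, which held 93886 to 534436 counts per aorta against 2284 to 11613 for Scd2, so part of the Scd2 count is uncertain. Me1 shares stretches with Gm7049 (32.6%), which held at most 12 counts. Srebf1 overlaps Rai1 on the opposite strand, which held 213 to 1063 counts against at least 1622 for Srebf1, and whether strand was used in counting is not given in the sources used here.

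Fat around the vessel expresses this pathway, so the adipocyte markers were read beside it. All 10 adipocyte markers had a log2 fold change below 0 (median -0.62, 3 of 10 at an unadjusted p under 0.05), with a summed level of 6958 to 20632 CPM in Ad-sham and 4504 to 12045 CPM in Ad-FAM3A. Of 9 brown adipocyte markers the 8 tested were below 0 (median -0.51), with Ucp1, the uncoupling protein of brown fat, at -1.02 (SE 0.45) and Zic1 near 0 counts. With the adipocyte level in the model as a covariate, the median of the 10 members was -0.59, all 10 stayed below 0 and 0 had an unadjusted p under 0.05. Under this covariate the log2 fold changes of the regulators moved from -0.60 to -0.27 for Srebf1 (SE 0.20) and from -0.85 to -0.36 for Mlxipl (SE 0.32). Of the enzymes that lead to palmitate, Acly was at -0.60 (SE 0.46), Acaca at -0.73 (SE 0.40) and Fasn at -0.66 (SE 0.45), and Acacb was at -0.65 (SE 0.38). Elovl6 was at -0.81 (SE 0.45), Me1 and Scd1 at -0.58 each and Scd2 at -0.31. Smooth muscle markers had the other sign, 8 of 8 above 0 (median 0.33), and fibroblast markers were 6 of 6 below 0 (median -0.28). Of the cardiac muscle markers 4 of 4 tested were below 0 (median -0.81), as were 4 of 4 tested kidney markers (median -1.01). For cardiac muscle the median of the summed levels went the other way, at 12.04 CPM in Ad-sham and 20.14 CPM in Ad-FAM3A. Ad-sham1 and Ad-sham3, which ranked highest over the members by median rank, also held the most cardiac muscle signal of the Ad-sham aortas (283 and 76.1 summed CPM, the others at 7.76 to 12.1) and the least smooth muscle signal (2933 and 5213 CPM, the others at 6367 to 12755). Ad-FAM3A6 did not share their place among the members. It held 187 CPM of cardiac muscle signal and the least smooth muscle signal of all aortas, 2251 CPM. Its median rank over the members was 7.5, against 12 in Ad-sham1 and 13 in Ad-sham3. Kidney signal was highest in Ad-sham6 (648 CPM) and Ad-FAM3A3 (355 CPM), and stood at 214 CPM in Ad-sham3 and 5.36 CPM in Ad-sham1. Macrophage (median -0.03) and endothelial markers (median -0.17) went either way, T cell markers were 4 of 4 above 0 (median 1.28), and skeletal muscle markers 5 of 6 (median 0.39). The highest T cell level was 138 summed CPM in Ad-FAM3A6, while the medians of the summed levels were 7.99 CPM in Ad-sham and 8.87 CPM in Ad-FAM3A. Hepatocyte markers, of the other main tissue of lipogenesis, were 6 of 6 above 0 (median 1.53), with summed levels of 1.52 to 57.8 CPM in Ad-sham and 1.22 to 394 CPM in Ad-FAM3A. The highest, 394 CPM, was that of Ad-FAM3A1, in which Acly, Acaca, Me1, Fasn, Srebf1 and Mlxipl were also the highest of their group. Ad-sham1 and Ad-sham3, the highest for the members by median rank, had 1.52 and 34.8 CPM. B cell markers were 4 of 4 higher at an unadjusted p under 0.05 (median 2.26), against 2.98% of all genes. This rested on Ad-FAM3A6 (536 summed CPM) and Ad-FAM3A7 (207 CPM), since the median of the summed levels was 16.4 CPM in Ad-FAM3A and 20.4 CPM in Ad-sham. Apart from the adipocyte covariate, the part of these cell types in the differences of the members was not tested.

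The members followed the adipocyte level to different degrees. Srebf1 followed it most closely over the 13 aortas, with Pearson r = 0.83 (permutation p = 0.00064, Benjamini-Hochberg adjusted p = 0.0064 over 10 members) and Spearman rho = 0.77 (permutation p = 0.00286). Its r was 0.80 without Ad-sham1 and Ad-sham2, the 2 aortas farthest from the median marker level, 0.81 within Ad-sham (exact permutation p = 0.0514, n = 6) and 0.80 within Ad-FAM3A (exact permutation p = 0.0238, n = 7). Mlxipl had r = 0.73 (permutation p = 0.0038, adjusted p = 0.0190) and rho = 0.49 (permutation p = 0.0896), with r = 0.68 without the same 2 aortas. For the enzymes r was lower and none passed the adjustment with all 13 aortas: Fasn had r = 0.60 (permutation p = 0.0322, adjusted p = 0.0537) and rho = 0.46 (permutation p = 0.121). Its r was 0.43 without these aortas, 0.72 within Ad-sham (exact permutation p = 0.117, n = 6) and 0.20 within Ad-FAM3A (exact permutation p = 0.668, n = 7). The number of members that passed, 2 with all aortas, was 7 without Ad-sham6, 6 without Ad-FAM3A2, 6 without Ad-FAM3A5 and 7 against Plin1 alone, so that enzymes passed there. Scd1 had r = 0.37 (permutation p = 0.218) and rho = 0.28 (permutation p = 0.354). With the mean log2 CPM of the brown adipocyte markers, r was 0.64 for Fasn (rho 0.59) and 0.59 for Srebf1 (rho 0.59), given without a test. Whether Srebf1 followed fat more closely than the enzymes did was not tested. In Ad-FAM3A2 enzymes and regulators alike were low beside the marker level: its adipocyte markers, at a mean log2 CPM of 8.93, were second in the Ad-FAM3A aortas to those of Ad-FAM3A1 (9.32), while Fasn (2306 CPM) and Mlxipl (45.4 CPM) were the lowest of all 13 and Srebf1 (148 CPM) was among the lowest 3.

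Scd2 had another pattern across aortas, described here without a test because the lists were read after that pattern had been seen. Over the 13 aortas, r of Scd2 with the mean log2 CPM of a list was 0.84 for sterol synthesis (Spearman rho 0.87) and 0.80 for 6 Schwann cell markers (rho 0.74), the myelin genes of peripheral nerve. It was 0.74 for the other elongases, desaturases and partners (rho 0.74) and 0.66 for 6 markers of sympathetic neurons (rho 0.76). The pattern was thus shared with several lists and is not particular to 1 of them. With the adipocyte markers r of Scd2 was 0.23 (rho 0.20), and with the smooth muscle markers it was -0.55 (rho -0.55). With the Schwann cell markers r was 0.77 without Ad-sham5 and Ad-FAM3A2, the aortas farthest from the median of that level, 0.92 within Ad-FAM3A (n = 7) and 0.47 within Ad-sham (n = 6). The other 9 members had r between 0.12 and 0.40 with these markers over all aortas, but within Ad-FAM3A r was 0.71 for Mlxipl and 0.67 for Srebf1. The Schwann cell markers summed to 74.0 to 368 CPM in Ad-sham and 38.6 to 217 CPM in Ad-FAM3A, and 6 of 6 had a log2 fold change below 0 (median -0.60), with 0 at an unadjusted p under 0.05. Those of sympathetic neurons were also 6 of 6 below 0 (median -0.66), with summed levels from 0.577 to 992 CPM in Ad-sham and from 16.6 to 1096 CPM in Ad-FAM3A. The part of nerve and of fat in the differences between the groups was not tested beyond the covariate above.

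**Figure D5:**
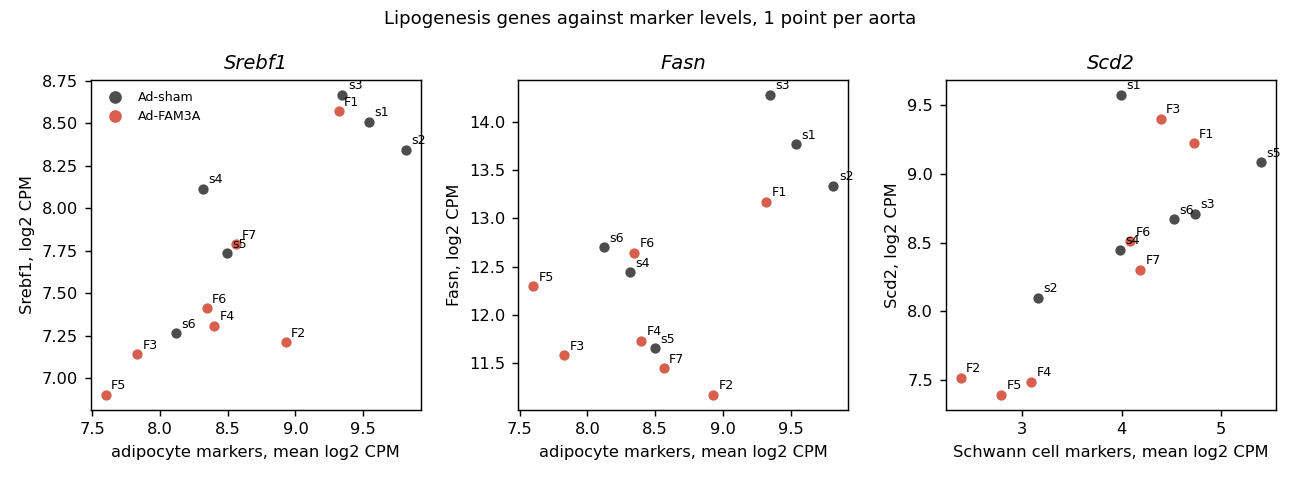
Log2 CPM of Srebf1 and of Fasn against the mean log2 CPM of 10 adipocyte markers, and of Scd2 against that of 6 Schwann cell markers; each point is an aorta, labelled s (Ad-sham) or F (Ad-FAM3A) with its number. Srebf1 (r = 0.83) and Scd2 (r = 0.80) increase with their marker levels, and in F2 both Srebf1 and Fasn (r = 0.60) are low beside its adipocyte level.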

How the data were processed

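Total RNA of 13 mouse aortas, 6 labelled Ad-sham and 7 labelled Ad-FAM3A, was sequenced with reads of 150 bases. The authors discarded reads of low quality, used Hisat2 (v2.0.5) for alignment to GRCm38, and deposited FeatureCounts (v1.5.0-p3) counts per gene. The annotation release, the strand setting and the treatment of reads that match several genes are not given in the sources used here. They also deposited FPKM as 1 mean per group, which was read only beside the levels. The labels name another RNA and library kit than the study's methods, so the kit is uncertain. Samples were grouped by title, and 0 columns were left unmapped.

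The 10 members and all gene lists were chosen with earlier results of these data known. The named genes are Fam3a, the members, the genes of these lists, the 3 genes most like each member, and genes that overlap or share sequence with a member.

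Counts were scaled by TMM, filtered by filterByExpr and compared by edgeR 4.0.16 (quasi-likelihood test, R 4.3.3), with Benjamini-Hochberg adjustment over 15811 genes and a call at an adjusted p under 0.05. Each standard error is the log2 fold change over the root of the F statistic. Log2 CPM used a prior count of 2. Exact permutation tests of single values were two-sided (scipy 1.17.1), and correlations used 100000 permutations, or all of them within a group. A count of 0 allows up to 3 counts, or 0.152 to 0.207 CPM, for counting error only. Nothing says how the aortas were pooled or batched, so p-values measure the spread between these libraries. Alternatives were DESeq2 1.42.0, limma-voom (limma 3.58.1), other scalings and filters, the replicate number as a block, the adipocyte level as a covariate, and each aorta left out. The quasi-likelihood fit was tested on simulated data, with changes larger than those estimated for the members. That test does not show whether changes of the members' size would be called. Shared 31-base stretches were counted in GENCODE M21 transcripts, which give the same start and end for 8 of the 10 members.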

Additional observations from a re-analysis of the deposited data

Results flagged for a closer look

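Of 66 sets of values (each member, ratio and mean log2 CPM of a marker list within a group), 6 had 1 aorta far from the others by Dixon's 95% criterion, where chance gives about 1 in 20, or 3.3 sets. Mlxipl stood at a log2 CPM of 7.14 in Ad-FAM3A1, while the rest of that group lay between 5.51 and 5.92. The log2 ratio of Scd2 to Scd1 was -3.83 in Ad-sham5, against -5.53 to -5.13 in the other Ad-sham aortas, and Ad-sham5 also held the highest Schwann cell marker level, 368 summed CPM. The log2 ratio of Acly to Fasn was -3.02 in Ad-sham4, against -2.64 to -2.48 in the others. Of the marker lists, T cells stood at a mean log2 CPM of 3.26 in Ad-sham4 (others 0.62 to 1.19), kidney at 4.11 in Ad-FAM3A3 (others -2.44 to 0.18) and cardiac muscle at 3.90 in Ad-FAM3A6 (others -0.34 to 1.09).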

How the results depend on the processing

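All 220 fold changes of the 10 members under 22 alternatives were below 0, and 0 of them passed an adjusted p of 0.05. Every alternative refits the same aortas or a part of them, so these values are not independent of one another. The median of the members ranged from -1.11 without Ad-sham5 to -0.59 with the adipocyte marker level as a covariate. No gene was called under any alternative other than DESeq2, which called 10, 1 of them lower. Genes at an unadjusted p under 0.05 numbered 934, against 2269 with no filter on low counts, 1501 by DESeq2, 519 with the adipocyte covariate, and 491 to 1345 with 1 aorta left out (491 without Ad-sham3). With the replicate block 596 genes had an unadjusted p under 0.05, the median of the members was -0.77, and 2 members (Me1 and Srebf1) had an unadjusted p under 0.05. The deviations of same-numbered aortas correlated between -0.33 and 0.45, so the numbers are not shown to pair the aortas.

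The members that followed the adipocyte level numbered 2 by Pearson r, 1 by Spearman rho, 1 without the 2 farthest aortas, 0 within Ad-sham, 0 within Ad-FAM3A, 7 against Plin1 alone, and 2 to 7 with 1 aorta left out (7 without Ad-sham6, 6 without Ad-FAM3A2 and 6 without Ad-FAM3A5). Within Ad-FAM3A, r turned negative for Elovl6 (-0.19) and Scd1 (-0.0883). No ratio differed between groups under any alternative, and with 1 aorta left out differences near 0 changed sign: Acly to Fasn ran from -0.0948 to 0.0652, Acaca to Fasn from -0.0443 to 0.0499, Mlxipl to Srebf1 from -0.241 to 0.0768 and Scd2 to Scd1 from -0.0756 to 0.407. The cause of these changes was not tested. Depth does not limit the members, the least of which, Mlxipl, had at least 633 counts in each aorta.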
